A study of Brassica napus with 6 samples.

Results

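Expression and cleavage data were examined for miR166 and miR394, a pair of conserved plant miRNA families, in shoot apices of Brassica napus (oilseed rape). All known miRNAs named miR166 or miR394 were taken, which gave 3 of 401 miRNAs listed in the small RNA files: bna-miR166e, bna-miR166f and bna-miR394ab. From the degradome files, which list the cut ends of mRNAs matched to miRNAs, all records under these family names were taken, whatever the species prefix. These were 11 of 535 records in the normal library and 12 of 554 in the rod-like library, on 13 of 568 target transcripts.

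The study set apices of normal plants against apices of rod-like plants, a form that is named but not described in the labels. The plants shared an experimental field and were sampled as bolting began, at an age of 3 months, and each RNA sample pooled 6 plants. There were 2 small RNA samples and 1 degradome sample of each plant type. The labels do not tie a degradome sample to a small RNA sample, so the cleavage and abundance results may come from different plant pools. No treatment or transgene is named, and the tissue could not be checked against marker mRNAs, as transcript levels were not measured.

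Plant miRNAs guide an Argonaute protein to mRNAs with a nearly complementary site, where the mRNA is cut opposite bases 10 and 11 of the miRNA. In Arabidopsis, miR166 cuts the mRNAs of class III HD-ZIP transcription factors such as PHABULOSA and REVOLUTA, which specify the upper side of leaves and maintain the shoot meristem. There, miR394 acts on the F-box gene LEAF CURLING RESPONSIVENESS, moves from the outer cell layer into the layers beneath, and keeps the stem cells of the apex competent. The identifiers of the Brassica targets are not paired with gene names in the files, and 0 of the 13 matched the RefSeq gene table, so they are given by identifier alone.

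The sequences below carry both families' cleavage results and were read from the degradome alignments, 5′ to 3′ and with T for U. In the miRNAs, capitals mark the seed, bases 2 to 8, which differs between the families.
bna-miR166e: tCGGACCAggcttcattcccc
bna-miR394b: tTGGCATTctgtccacctcc
The degradome lists the miR394 sequence under the name miR394b, while the small RNA files count miR394 under the joint name miR394ab. That miR394ab covers this sequence is taken from the names alone. No degradome record carries the name miR166f.

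The target sites fell into few sequences, shown here because most miR166 targets shared 1 site and all miR394 targets shared another. Capitals mark the bases of the site that were not paired with the miRNA or formed a G:U pair.
miR166 site in 7 transcripts: TgggatgaagcctggtccgG
miR166 site in BnaA02g06170D: CgggatgaagcctggtccgG
miR166 site in BnaC06g13950D: gAgAaCatgaagcctggtccCa
miR394 site in 4 transcripts: ggaggtTgacagaatgccaa

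Within a plant type the chi-square test found no difference between the 2 small RNA files beyond sampling noise, so ratios use their mean and count them as 1 sample. Their chi-square per degree of freedom, over all miRNAs with enough counts, was 0.885 in normal (p = 0.952) and 1.05 in rod-like plants (p = 0.246). Each plant type therefore has n = 1 and no spread between plant pools is known. The model fits take the 4 files as separate samples, so their p-values rest on the spread between files and compare libraries, not plant types. Summed counts over the listed miRNAs were 625795 to 713637 per file. Abundance is given as reads per 1000000 listed miRNA reads after TMM scaling (RPM), and ratios carry exact 95% intervals that cover counting error only.

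Between these libraries under TMM scaling over all miRNAs tested, miR166 was nearly level, with miR166f slightly lower in rod-like apices. The far rarer miR394ab stood 1.48-fold higher. With TMM on known miRNAs alone, summed miR166 stood at 0.692 times its normal abundance and miR394ab had a log2 fold change of 0.07. In whole apices, a change in the number of cells with a miRNA and a change in its amount per cell cannot be told apart. The most abundant member was miR166e, which ranked 2 among the known miRNAs in each of the 4 files. The normal files counted 129726 and 131026 reads of it, and the rod-like files 139732 and 140150. On the RPM scale normal apices stood at 204553 and 201469 and rod-like apices at 200343 and 201570. The rod-like 2 file lay between the normal files, so the files overlapped, which gives no measure of the spread within a plant type. Rod-like abundance was 0.990 times normal abundance (0.983 to 0.997), a difference that did not pass edgeR's quasi-likelihood test (adjusted p = 0.625). In 28.1% of the 391 miRNAs tested, and in 69.2% of the 65 known miRNAs among them, the same test made a call. Among the 45 known miRNAs that reached a mean of 100 counts per file, miR166e had the log2 ratio nearest to 0, which is a statement about this scaling. With DESeq2's size factors, which moved its log2 fold change from -0.01 to -0.03, it was called lower (edgeR, adjusted p = 0.0456). It was also called lower with scaling by the total count (-0.08), in DESeq2's Wald test (-0.03) and in the fit on known miRNAs alone (-0.51), so whether it was level depends on the scaling.

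The second form, miR166f, ranked 4 among known miRNAs in the normal files and 5 in the rod-like files. Normal apices held 68506 and 66389 RPM of it, and rod-like apices 62835 and 62954 RPM. Both rod-like files were lower than both normal files, but the files of a plant type are counted as 1 sample. The ratio was 0.933 (0.920 to 0.945), and miR166f was lower in edgeR's test (log2 fold change -0.10, adjusted p = 1.42e-06), a direction in which 11.5% of all miRNAs and 16.9% of the known ones were called. Without the low-count filter the call was lost (edgeR, adjusted p = 0.135).

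**Figure D1:**
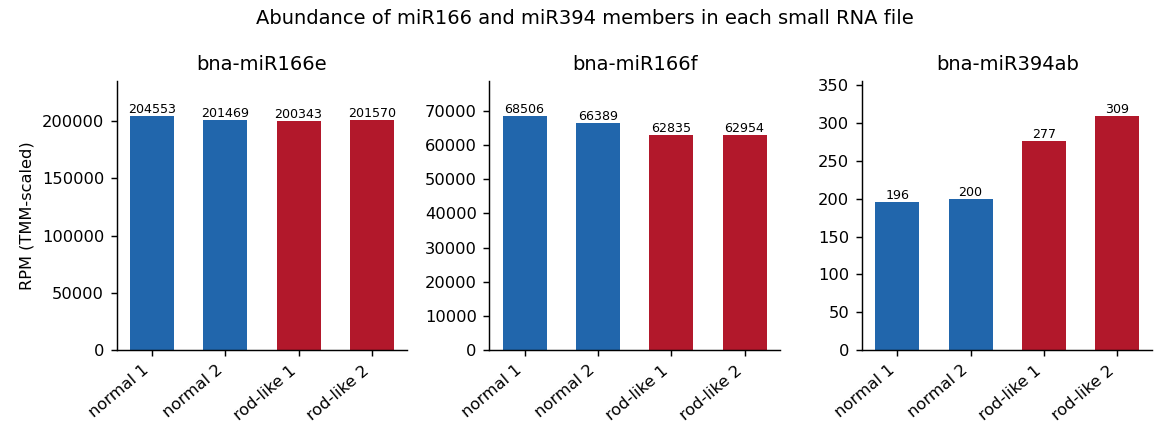
Bars show the TMM-scaled abundance (RPM) of each member in each small RNA file, with a separate axis from 0 for each member; blue is normal, red is rod-like. The miR166e bars are nearly level, the miR166f bars are slightly lower in rod-like files, and the miR394ab bars stand at 196 and 200.0 RPM in normal and 277 and 309 RPM in rod-like files.

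How the reads of miR166 divided between its forms does not depend on any scaling between libraries. The share of miR166f in the miR166 counts of the first normal file was 25.1% (Clopper-Pearson 95% interval 24.9 to 25.3), and of the second 24.8% (24.6 to 25.0). Rod-like files had shares of 23.9% (23.7 to 24.1) and 23.8% (23.6 to 24.0). The intervals of the normal files did not overlap those of the rod-like files, but they cover counting error only. There were thus 2.99 and 3.03 counts of miR166e for each count of miR166f in normal apices, against 3.19 and 3.20 in rod-like apices. The ratio of miR166f to miR166e in rod-like apices was 0.942 times (0.928 to 0.957) that in normal apices. How reads common to near-identical forms were assigned is not described, and its part in this shift was not tested.

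Taken as a sum, which avoids that split, miR166 held 27.7% of the listed counts in both normal files and 25.8% in both rod-like files. Such a share also moves with the counts of other miRNAs. The predicted novel_mir_1 had 10121 and 10075 counts in normal files and 52039 and 52688 in rod-like files. In the other direction, miR168a had 190609 and 191209 against 153290 and 153345. Their part in the shares was not tested. The scaled ratio of the sum was 0.976 (0.969 to 0.982). This ratio moved with the scaling, to 0.692 when TMM was computed on known miRNAs alone.

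The rarest of the 3 was miR394ab, at rank 40 or 41 among the 74 known miRNAs. The normal files counted it 124 and 130 times, and the rod-like files 193 and 215 times. On the RPM scale normal apices stood at 196 and 200.0 and rod-like apices at 277 and 309. Both rod-like files exceeded both normal files, which, with the files of a plant type counted as 1 sample, is no replication. The ratio was 1.48 (1.18 to 1.86), and miR394ab was higher in edgeR's test (log2 fold change 0.57, adjusted p = 8.54e-06) and in DESeq2's Wald test (0.55, adjusted p = 0.0201). Of all miRNAs, 16.6% were called higher by edgeR and 9.72% by DESeq2, and of known miRNAs 52.3% by edgeR. The median log2 fold change was -0.01 over all miRNAs and 0.41 over the known ones, so miR394ab lay little above the median known miRNA. In a fit on known miRNAs alone, which moved log2 fold changes by -0.50 at the median, its fold change was 0.07 and the call was lost (edgeR, adjusted p = 0.591); 33.8% of known miRNAs were called higher there.

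Set against miR166 in the same file, a measure free of scaling, there were 71.6 and 74.6 counts of miR394ab per 100000 miR166 counts in normal files. In rod-like files there were 105 and 117, and no interval of 1 plant type reached an interval of the other. The ratio of miR394ab to miR166 was 1.52 times (1.21 to 1.91) that in normal apices. This ratio does not say which of the families differed, and its interval covers counting error in these libraries, not the spread between plant pools.

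**Figure D2:**
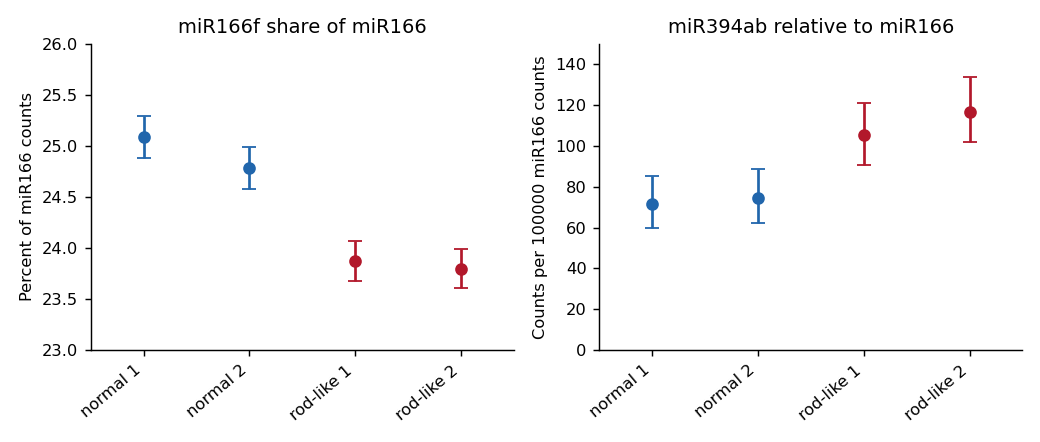
Points show, for each small RNA file, the percent of miR166 counts that were miR166f (left, axis from 23 to 26) and the miR394ab counts per 100000 miR166 counts (right, axis from 0), with exact 95% intervals for counting error. Rod-like files lie below normal files on the left, at 23.8% to 23.9% against 24.8% to 25.1%, and above them on the right.

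In each setting tried, the log2 fold change of miR394ab was above those of both miR166 forms. A change of scaling shifts all members by nearly the same amount, so it cannot alter their order. Leaving out 1 file keeps the other file of what is counted as 1 sample. The constant order is therefore no check on these differences. Over 10 alternative settings, the log2 fold change of miR394ab ranged from 0.07 to 0.65, that of miR166f from -0.60 to -0.08 and that of miR166e from -0.51 to 0.00016. A call was made in 9 of the 10 for miR394ab, in 8 for miR166f and in 4 for miR166e.

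**Figure D3:**
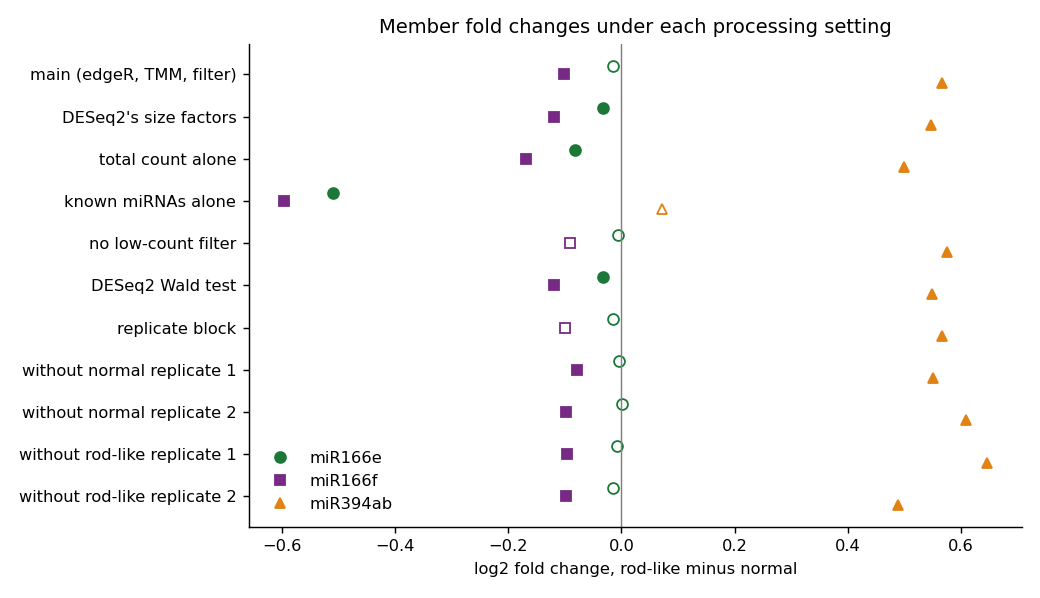
Points show the log2 fold change (rod-like minus normal) of each member on the x axis under each processing setting on the y axis; filled points have an adjusted p under 0.05 and open points do not. Values shift to the left for all 3 members in the fit on known miRNAs alone, where miR394ab is at 0.07. The order of the members is the same in each row, which a change of scaling cannot alter.

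By size and direction of change, the known miRNAs nearest to miR166e over the 4 files were miR6028 (ratio 0.973), miR399e (1.02) and miR156h (0.953), out of 44 others at or above 100 counts per file on average. Nearest to miR166f were miR156h, miR6028 and miR166e. Nearest to miR394ab were miR172e (1.51), miR167a-c (1.41) and miR162b (1.57). These are descriptions of 2 libraries and say nothing of shared control.

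Other miRNAs that act on organ polarity, boundaries and the meristem were looked at beside the members: the 11 known ones of miR160, miR164, miR171, miR319 and miR390. By edgeR's test, 5 of them stood higher in rod-like apices, 4 stood lower and 2 did not pass, with a median log2 fold change of 0.14, or -0.36 in the fit on known miRNAs alone. For comparison, 52.3% of all known miRNAs tested were called higher and 16.9% lower. Their median was 0.41, or -0.09 in the fit on known miRNAs alone. Higher by the smallest adjusted p were miR164a (ratio 2.94, 2.77 to 3.11) and miR164b-d (1.79, 1.71 to 1.88), which in Arabidopsis act on the CUC boundary genes. Lower were miR319a (0.283, 0.230 to 0.345), which acts on TCP genes of leaf growth, and miR390a-c (0.862, 0.835 to 0.891), which starts the tasiRNAs that act on auxin response factors in leaf polarity. Of this list, miR160e and miR171gf were called higher with all miRNAs but lay at -0.36 and -0.09 in the fit on known miRNAs alone.

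**Figure D4:**
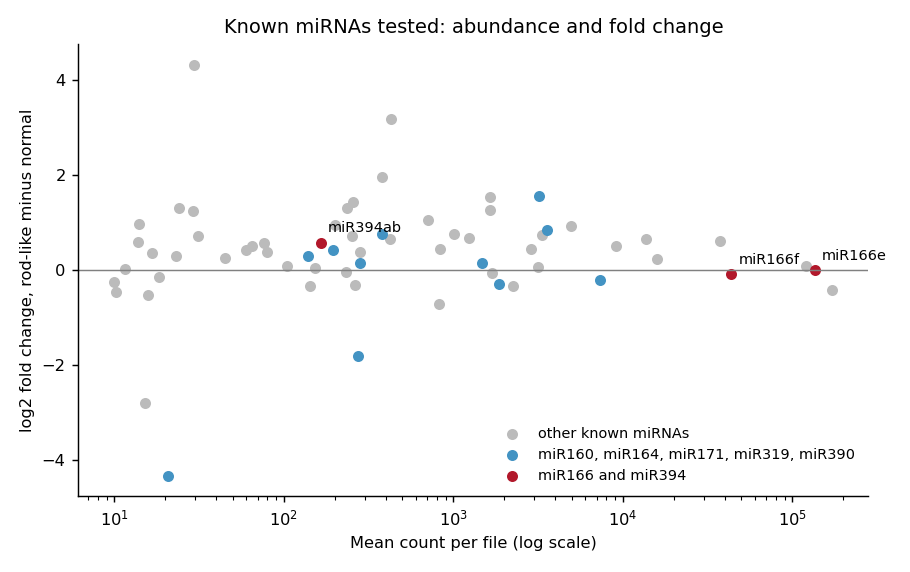
Each point is a known miRNA tested, with its mean count per file on a log x axis and its log2 fold change (rod-like minus normal) on the y axis. The miR166 forms lie at high abundance close to 0, and miR394ab at low abundance at 0.57, among the 11 miRNAs of the polarity and meristem list (blue) that spread from -4.33 to 1.56.

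In the degradome, miR166 was listed with 7 target transcripts in normal and 8 in rod-like apices. Of 9 in all, 6 were listed in both, which is 85.7% of the normal and 75.0% of the rod-like list. Of the pairs of other named miRNAs, 75.6% of the normal and 78.6% of the rod-like list were shared. The target caller gives each record a category from 0 to 3, taken here as stronger evidence the lower it is, which is an assumption, as the definition is not given in the sources used here. With 1 library per plant type there was no replicate, and no tag counts were at hand, so a difference in category is a description of 2 libraries.

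The site printed first above was common to BnaA08g11980D, BnaA09g26050D, BnaA10g13520D, BnaAnng30670D, BnaC03g66860D, BnaC05g23470D and BnaC09g54340D. Each pairs 18 of the 21 bases of miR166e, including all of the seed, with a G:U pair at base 1 and unpaired bases 17 and 21. The site is 20 bases long, and base 17 has no site base opposite it in the alignment. Each has an alignment score of 2.5. Cleavage was listed at positions 606 to 636 of these transcripts. The site of BnaA02g06170D differs from it by T1C, counted from the 5′ end of the site, at a base that is unpaired in either case. Cleavage of this transcript was listed at position 315.

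Of these 8 transcripts, 4 were in category 0 in both libraries: BnaA08g11980D and BnaC03g66860D at position 606, BnaAnng30670D at position 609 and BnaA09g26050D at position 636. For BnaC09g54340D, listed at position 612, the category was 1 in normal and 0 in rod-like apices. For BnaA02g06170D it was 3 in normal apices, where the target caller's P-value was 0.016, and 0 in rod-like apices, where it was listed as 0. In the rod-like library alone, BnaA10g13520D at position 615 and BnaC05g23470D at position 636 were listed, both in category 0. All 8 miR166 records of the rod-like library were thus in category 0, against 4 of 7 in the normal library.

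The remaining miR166 target, BnaC06g13950D, was listed in the normal library alone. Its cleavage was listed at position 1023, with category 3, a score of 4 and a P-value of 0.016. Its site is 22 bases long and shares a run of 14 bases with the common site. Base 2 of miR166e, in the seed, is unpaired there, as are bases 18 and 20, and the site has 1 extra base.

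For miR394 the libraries listed the same 4 transcripts, each in category 0 with a score of 1 and a P-value listed as 0 in both. Cleavage was at position 1203 of BnaA07g08860D, 1206 of BnaA09g27990D, 1212 of BnaC05g21250D and 1191 of BnaC07g11360D. The 4 sites are identical and pair 19 of the 20 bases of miR394b, with base 14 unpaired. In all 23 records of both families, bases 10 and 11 of the miRNA, where Argonaute cuts, are paired. The target caller aligns and scores miRNA and site, so this pairing is no separate evidence of cleavage.

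**Figure D5:**
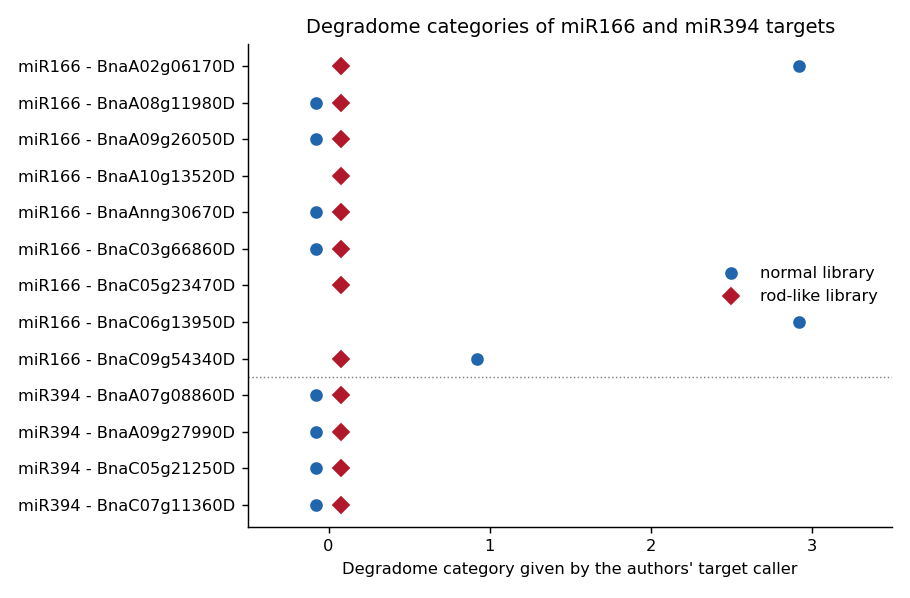
For each miR166 or miR394 target transcript (y axis), points show the category given by the authors' target caller (x axis, 0 to 3) in the normal library (blue circles) and the rod-like library (red diamonds); a missing point means no record. All rod-like points lie at 0, and 3 of the normal points, all of miR166, lie at 1 or 3.

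Records of the other named miRNAs give the background for these counts. Of 307 and 295 such records, 76.5% were in category 0 in the normal library and 89.2% in the rod-like library, so these records too had the higher share in the rod-like library. Of the 232 shared by both libraries, 8 had a lower category in the rod-like library, 9 a higher one and 215 the same, against 2, 0 and 4 of the 6 shared miR166 records. A P-value listed as 0 was given to 24.4% and 22.0% of the other named records, and to 9 of 11 and 12 of 12 of the miR166 and miR394 records. No test was made of these differences, as records of a family share a sequence.

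In an allotetraploid such as Brassica napus, identifiers beginning BnaA and BnaC belong to the A and C subgenomes, which come from its diploid parents. The targets of miR166 were 5 of the A and 4 of the C subgenome, and those of miR394 were 2 of each. Both records that were listed in the rod-like library alone, BnaA10g13520D and BnaC05g23470D, hold the common miR166 site. Other miRNAs had only 1 record on these 13 transcripts: novel_mir_1040 at position 2086 of BnaC09g54340D, in category 2 in the rod-like library.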

How the data were processed

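Small RNAs of 18 to 30 nt were gel-purified, amplified and sequenced, and degradome libraries captured 5′-monophosphate ends of polyadenylated RNA, per the labels' protocols. For small RNAs, the authors deposited counts in whole numbers, with no scaling seen in the values. The degradome files give, per the file headers, a position, score, category and P-value for each miRNA-target pair. No source used here names the mapper, the target caller or its thresholds.

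The 391 miRNAs that passed filterByExpr were tested with edgeR 4.0.16 in R 4.3.3 (quasi-likelihood, robust, TMM scaling, Benjamini-Hochberg adjustment over all, threshold 0.05). The step was tested on simulated data drawn with independent replicates, so that test does not bear on calls between single libraries. Ratios are of mean counts per file over TMM-scaled totals, with intervals conditional on the summed count. PCR reads are not independent molecules. Alternatives covered scaling, filter, DESeq2 1.42.0, a replicate block and each file left out. Tables were made with Python 3.11.15, pandas 2.3.3 and SciPy 1.17.1. All members are named, with every target in category 0 or in 1 library alone, up to 2 listed miRNAs in each direction by adjusted p, and the 3 miRNAs nearest in ratio. Members, lists and tests were chosen with earlier results of these data known. Outside this rule, miR160e and miR171gf were named after their values were seen.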

Additional observations from a re-analysis of the deposited data

How the results depend on the processing

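The direction of miR166f and of miR394ab held in all 10 alternatives, with their calls lost as follows. For miR166f the call was lost without the low-count filter (log2 fold change -0.0916, edgeR's adjusted p = 0.135) and with a replicate block (-0.10, adjusted p = 0.0673). For miR394ab it was lost in the fit on known miRNAs alone (0.071). For miR166e, a call as lower was gained under scaling by the total count (-0.0821), DESeq2's size factors (-0.0330), known miRNAs alone (-0.51) and DESeq2's Wald test (-0.0330). Leaving out each file gave -0.0151 to 0.00016 for miR166e, the positive value without normal replicate 2, with no call, and -0.10 to -0.08 for miR166f and 0.49 to 0.65 for miR394ab, with calls throughout. The miR166 sum had a ratio of 0.963 with DESeq2's size factors, 0.931 with the total count, 0.692 with known miRNAs alone, 0.822 with TMM on family sums and 0.976 to 0.985 with each file left out. The number of miRNAs called, 110, became 45 with known miRNAs alone (of 65 tested), 57 with DESeq2's Wald test, 53 with the replicate block and 71 to 87 with each file left out, 71 without normal replicate 1. The cause of these differences was not tested, apart from the fewer miRNAs tested in the fit on known miRNAs. The main fit also called 45 of those 65 known miRNAs, 34 higher and 11 lower, against 22 higher and 23 lower in the fit on known miRNAs alone. Same-numbered files had deviations correlated at -0.09 over the 109 miRNAs at or above 100 counts on average, and the numbers are not stated to pair samples; the block changed no call of miR166e or miR394ab. The shared degradome targets were 6 of 9 for miR166, or 5 of 8 with categories 0 and 1 only, and 4 of 4 for miR394 in each definition tried. About 127 counts of miR394ab per normal file limit its precision, against 130376 of miR166e.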

Other observations

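All 13 cleavage positions of miR166 and miR394 are multiples of 3, from 315 to 1212. Of 244 other target positions of named miRNAs, 120 (49.2%) are multiples of 3, and of 360 positions listed for predicted miRNAs alone 108 (30.0%). Among 16 other named families with at least 4 positions, 3 have multiples of 3 throughout and 6 have none. Positions of a family share a site and are not independent, and the point from which the target caller counts is not given in the sources used here.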
